A study of Mus musculus with 26 samples.

Results

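Natural killer T (NKT) cells of the mouse thymus were compared at the last and the first of their mature stages. The comparison rests on 11 of the 26 RNA sequencing libraries of the series, chosen by their stage label alone. Stage 3 cells (6 libraries) carry both CD44 and NK1.1 on their surface, and stage 1 cells (5 libraries) carry neither. Both were sorted from untreated wild-type C57BL/6 mice of 6 to 8 weeks as TCRβ-positive thymocytes that bind CD1d dimers loaded with the lipid α-galactosylceramide. The labels do not say how many animals gave each library or whether replicates came from separate animals, so every p-value here measures the spread between these samples, which may be technical. The samples are bulk populations, so a gene switched on in fewer cells and a gene with less RNA per cell cannot be told apart.

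NKT cells are T cells whose semi-invariant receptor recognises lipids held by CD1d. They are selected on cortical thymocytes, are driven into their lineage by the zinc finger factor PLZF (Zbtb16), and then pass through a proliferating stage with neither CD44 nor NK1.1, a stage with CD44 alone and a stage with both. Cells of the last stage are mostly of the NKT1 kind: they depend on the T-box factor T-bet (Tbx21) and interleukin 15, make interferon-γ and cytotoxic granules, and wear receptors shared with natural killer (NK) cells.

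The deposited values are FPKM, fragments per transcript length and per reads mapped in the library. The libraries fell into 2 sets that do not follow the stage. Set A, with a median of 13.41 to 13.85 FPKM over genes at 1 FPKM or more, holds stage 3 libraries 1 to 3 and stage 1 libraries 1 and 2. Set B, with a median of 7.58 to 9.81 FPKM, holds stage 3 libraries 4 to 6 and stage 1 libraries 3 to 5. The labels name 2 library kits without tying either to a library. The first principal component (58.3% of the variance) parted the sets, and the second (23.3%) parted the stages, with stage 3 libraries at 36.79 to 52.5 and stage 1 libraries at -67.16 to -35.78. Absolute depth is not given, but the deposited intervals of genes at 20 to 100 FPKM had half-widths of 5.5% to 6.9% in set B and in stage 1 library 1, against 15.3% to 21.8% in the other set A libraries, so low genes are measured less precisely there. The difference of stage 3 minus stage 1 was therefore fitted on log2(FPKM + 1) with library set as a term and tested with limma over 10857 genes. A gene is called at an adjusted p under 0.05, and the pseudocount of 1 understates the change of low genes.

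**Figure D1:**
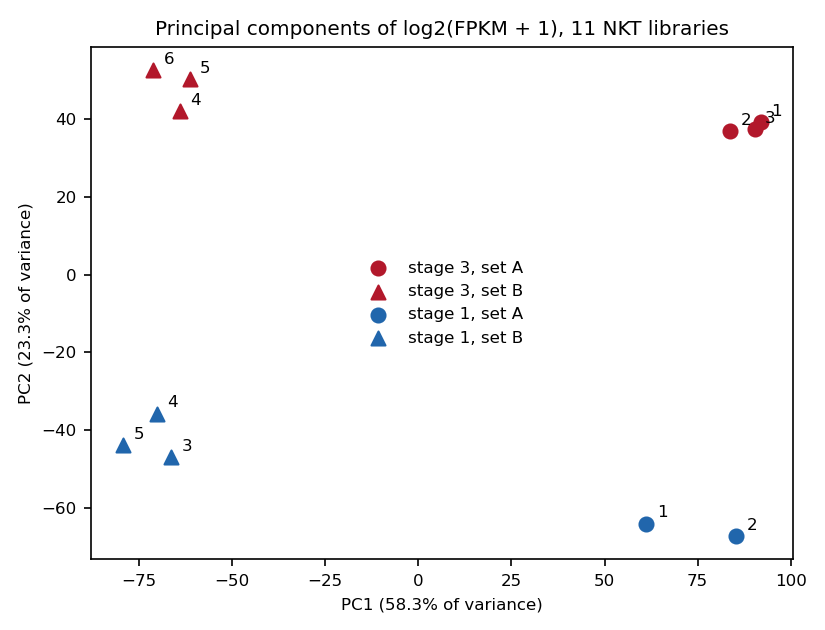
Each point is a library, placed by its first (horizontal) and second (vertical) principal component of log2(FPKM + 1) over the tested genes, with the share of variance on each axis. Red marks stage 3 and blue stage 1, circles are set A and triangles set B, and the digit is the replicate number. The sets part along the first axis and the stages along the second, where all 6 stage 3 libraries lie above 0 and all 5 stage 1 libraries below it.

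The 2 genes that defined the sort followed the labels. Klrb1c, which encodes NK1.1 (chr6:128728503-128738659, mm9), had a lowest, median and highest level of 440, 495 and 563 FPKM in stage 3 libraries, and 4.2, 6.77, 4.45, 8.47 and 4.99 FPKM in stage 1 libraries 1 to 5. Cd44, the hyaluronan receptor (chr2:102651300-102741822, mm9), had 52, 105 and 145 FPKM in stage 3 libraries, and 4.98, 3.45, 4.72, 3.69 and 2.22 FPKM in stage 1 libraries. No library of one stage overlapped the other for either gene. Their differences of 6.22 ± 0.17 and 4.23 ± 0.21 log2 units (SE) restate the gates and are not used as a finding.

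The T cell label held in every library. Cd3d, Cd3e and Cd3g, chains of the T cell receptor complex, were at 429 FPKM or more in stage 3 libraries. In stage 1 libraries they were at 277 FPKM or more, and none of these genes was called as deposited. With upper-quartile scaling Cd3e and Cd3g were called higher (limma adjusted p = 0.00142 and 0.00412). Of the 9 genes chosen to check the NKT and T cell label, none was called higher as deposited and 4 were called lower. These were Zbtb16 (-2.32), Cd247 (-1.24), Cd5 (-0.96) and Slamf6 (-3.44 log2 units). Markers of other cells moved with single libraries. The 9 B cell markers summed to 381 FPKM in stage 3 library 5, to 2.43 to 6.53 FPKM in the other stage 3 libraries and to 12.7 to 91.3 FPKM in stage 1 libraries, while Pax5 and Ebf1 were listed at 0 in all 11. In stage 1 most of that sum was Cd74, the invariant chain of class II molecules. The 8 erythroid markers measured summed to 827 FPKM in stage 3 library 5, and to at most 14.3 FPKM in the other stage 3 and 1.74 FPKM in stage 1 libraries. Leaving out stage 3 library 5 moved the calls of each of the 22 gene lists below by at most 3 genes in a direction. The count without it is given beside the list with that move.

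Conventional NK cells share NK1.1 with stage 3 cells. Their 8 markers summed to 241 to 739 FPKM in stage 3 libraries and to 4.82 to 18.3 FPKM in stage 1 libraries, and 5 were tested and called higher, of which 4 reached 1 FPKM in fewer than 3 stage 1 libraries and so passed the filter through stage 3. Most of that sum was granzyme A (Gzma), which NKT1 cells make too. Eomes, a T-box factor that defines conventional NK cells, was at 0 to 0.322 FPKM in stage 3 libraries and at 0.0168 to 0.544 FPKM in stage 1 libraries. The part of NK cells in the results below was not tested beyond these values.

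In all, 4400 genes were called, 40.5% of those tested. Of these, 1262 were higher in stage 3 (11.6% of tested genes) and 3138 were lower (28.9%). The counts of each gene list below are to be read against these shares. A change of at least 2-fold was found for 540 of the higher and 1172 of the lower genes, and one of at least 8-fold for 83 and 70. The larger number of falls goes with a shift of all genes: the median difference over tested genes was -0.18 log2 units as deposited, and -0.01 with upper-quartile scaling. Under that scaling 4211 genes were called (38.8%), 1945 higher (17.9%) and 2266 lower (20.9%), so that 46.2% of calls were higher, against 28.7% as deposited. Differences of single genes below are as deposited, to be read against -0.18.

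Inside set B, with 3 libraries a stage, 2830 genes were called (26.1%), 600 higher (5.53%) and 2230 lower (20.5%). The libraries of set A, which that fit did not use, called 1250 higher (11.5%) and 1908 lower (17.6%). Both sets called 506 of the same genes higher, which is 40.5% of the set A calls and 84.3% of the set B calls. Both called 1263 of the same genes lower, 66.2% of the set A calls and 56.6% of the set B calls. Of the 600 genes called higher in set B, 591 were also higher in set A, called or not. In opposite directions in the 2 sets, 5 genes were called, each higher in set A and lower in set B: A630089N07Rik, BC016495, Eaf2, Gm5113 and Zfand6, named after their values were seen. A test of whether the stage difference itself differs between the sets (an interaction term in limma) called 28 genes, 0.258% of those tested.

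**Figure D2:**
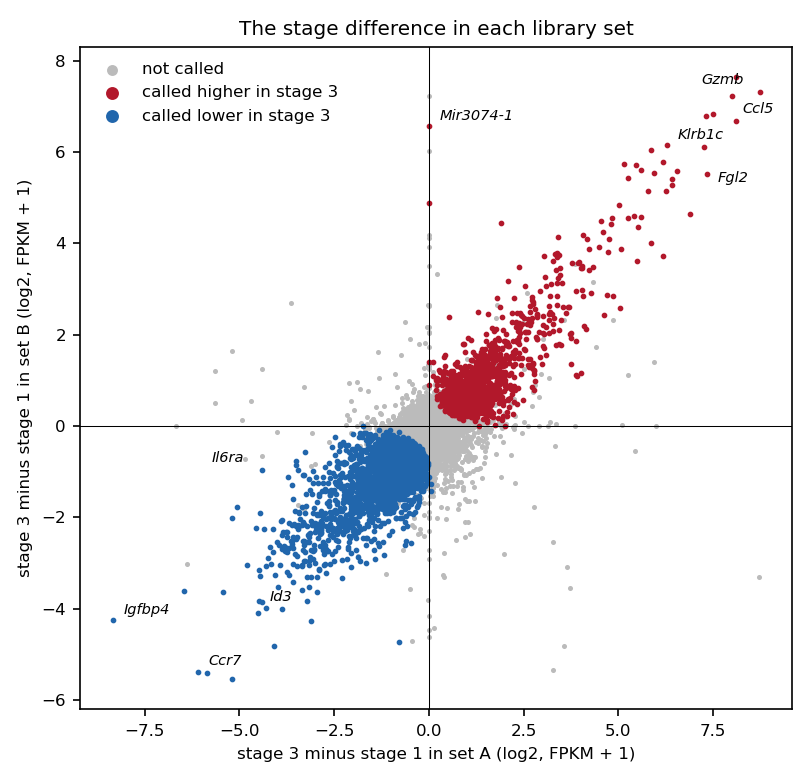
Each point is 1 of the 10857 tested genes, with its stage 3 minus stage 1 difference in log2(FPKM + 1) inside set A on the horizontal and inside set B on the vertical axis. Red genes were called higher and blue genes lower in the fit of all 11 libraries. Gzmb, Ccl5 and Klrb1c lie far to the upper right and Ccr7 and Id3 to the lower left in both sets, while Mir3074-1 lies at 0 in set A.

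Cytokine and cytotoxic genes of the NKT1 kind were mostly higher in stage 3. Of 27 listed genes 23 were tested, 20 were called higher and none lower, with a median difference of 3.67 log2 units. Inside set B 19 were called higher, and without stage 3 library 5, 21. Of the 20 genes called higher, 4 reached 1 FPKM in fewer than 3 stage 1 libraries. These passed the filter on low values through stage 3, where they are high, which partly fixes the count. Lists below with no such number held at most 2 genes a direction that passed only through their higher stage. Gzmb, the granule protease granzyme B (chr14:56877695-56881097, mm9), had a lowest, median and highest level of 680, 747 and 889 FPKM in stage 3 libraries, and 2.05, 0, 6.96, 5.12 and 1.67 FPKM in stage 1 libraries 1 to 5. Every stage 3 library was far above every stage 1 library, a difference of 7.95 ± 0.40 log2 units (SE, n = 6 and 5 libraries, limma adjusted p = 1.2e-07). The pore-forming protein perforin (Prf1) had 38.1, 41.6 and 59 FPKM in stage 3 libraries, and 0.536, 0, 0.691, 1.88 and 0.383 FPKM in stage 1 libraries. Nkg7, a granule membrane protein, and Gzma were also higher, by 5.43 ± 0.25 and 5.60 ± 0.28 log2 units (SE). Serpinb9, whose product shields a killer cell from its own granzyme B, was higher by 1.83 ± 0.20 (SE).

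Chemokines and cytokines of the same list were higher too. Xcl1, lymphotactin, which draws XCR1-bearing dendritic cells (chr1:166861779-166865641, mm9), had 703, 919 and 1199 FPKM in stage 3 libraries, and 0.42, 8.11, 4.29, 25.3 and 2.85 FPKM in stage 1 libraries. Ccl5, the chemokine RANTES, had 480, 1194 and 2651 FPKM in stage 3 libraries, and 3.06, 0, 13.9, 31.7 and 5.34 FPKM in stage 1 libraries. Stage 1 library 4 had the highest stage 1 level of both, and still lay below every stage 3 library. The differences were 7.32 ± 0.66 and 7.57 ± 0.48 log2 units (SE) by limma, with adjusted p of 3.84e-05 and 1.75e-06.

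Ifng, interferon-γ, had 53.3, 153 and 197 FPKM in stage 3 libraries, and 1.67, 1.61, 1.32, 15.5 and 8.38 FPKM in stage 1 libraries. Its lowest stage 3 value was in library 5, and its difference was 4.84 ± 0.62 log2 units (SE, limma adjusted p = 0.000301). Fasl, the death ligand, was higher by 5.78 ± 0.30 (SE). Ccl3, an inflammatory chemokine, had 0.442 to 5.12 FPKM in stage 3 libraries and 0 to 3.15 FPKM in stage 1 libraries and was not called (limma adjusted p = 0.102). The proteoglycan gene Srgn, which packs granules, differed by 0.01 ± 0.20 log2 units (SE) and was not called either.

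Regulators of the NKT1 programme were also higher in stage 3. Tbx21 (chr11:96959321-96976645, mm9) had 84, 103 and 118 FPKM in the set A libraries of stage 3, against 14.5 and 30.2 FPKM in those of stage 1. In set B it had 13.7, 15.1 and 16.6 FPKM in stage 3 libraries, against 2.2, 2.99 and 1.89 FPKM in stage 1 libraries. The level thus differed between sets by more than between stages, but within each set the stages did not overlap, and the difference was 2.24 ± 0.19 log2 units (SE, limma adjusted p = 5.6e-08). Runx3, a partner of T-bet in effector T cells, was higher by 1.55 ± 0.14 and the homeodomain-only protein Hopx by 3.45 ± 0.24 (SE). Prdm1, which encodes Blimp-1, had 0.808 to 3.47 FPKM in stage 3 libraries and at most 0.306 FPKM in stage 1 libraries.

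The promoters of the most changed genes are shown because T-box and RUNX proteins bind short fixed words. The windows run from 250 bases before to 50 after the gene start in RefSeq (build GRCm38.p6, minus strand, 5′ to 3′), with matches to the T-box word GGTGTGA and the RUNX word TGTGGTT, on either strand, in capitals. Gzmb and Xcl1 were higher in stage 3, and Plac8 and Il13 were lower.
Gzmb, chr14:56262285-56262584: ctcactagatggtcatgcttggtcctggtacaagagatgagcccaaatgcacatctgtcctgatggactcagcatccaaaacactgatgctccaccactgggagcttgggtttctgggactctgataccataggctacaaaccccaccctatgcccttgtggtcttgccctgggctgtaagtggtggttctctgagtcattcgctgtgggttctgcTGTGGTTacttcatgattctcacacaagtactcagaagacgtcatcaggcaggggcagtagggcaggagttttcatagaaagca
Xcl1, chr1:164935473-164935772: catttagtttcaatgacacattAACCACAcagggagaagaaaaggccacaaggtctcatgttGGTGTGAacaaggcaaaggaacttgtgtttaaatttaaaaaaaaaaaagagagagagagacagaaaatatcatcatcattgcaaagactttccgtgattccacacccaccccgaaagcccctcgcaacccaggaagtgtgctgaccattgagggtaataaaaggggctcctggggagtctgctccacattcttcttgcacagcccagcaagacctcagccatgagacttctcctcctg
Plac8, chr5:100572156-100572455: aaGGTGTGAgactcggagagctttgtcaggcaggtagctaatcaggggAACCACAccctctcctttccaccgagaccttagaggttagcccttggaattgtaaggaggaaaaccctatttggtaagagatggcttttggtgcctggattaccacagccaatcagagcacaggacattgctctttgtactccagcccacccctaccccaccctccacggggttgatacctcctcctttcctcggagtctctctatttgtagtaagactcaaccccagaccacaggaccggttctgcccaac
Il13, chr11:53634653-53634952: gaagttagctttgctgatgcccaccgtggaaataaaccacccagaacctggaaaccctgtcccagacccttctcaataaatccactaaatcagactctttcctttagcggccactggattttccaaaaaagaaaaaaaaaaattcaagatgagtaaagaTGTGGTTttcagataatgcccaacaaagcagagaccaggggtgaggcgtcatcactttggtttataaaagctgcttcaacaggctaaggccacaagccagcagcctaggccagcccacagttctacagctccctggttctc

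Among the 15 largest rises, 12 had promoters in the RefSeq table, with 16 windows in all, and 4 of these held the RUNX word (25%). Among the 15 largest falls, 14 had promoters, with 18 windows, and 4 held it (22.2%). It was in 5.27% of all 32851 promoters there. The T-box word was in 1 window of each group and in 3.98% of all promoters. An E-box CAGNTG was in 8 of the 16 and in 8 of the 18 windows, against 51.4% of all, and the EGR word GCGTGGGCG was in none of the 16 and 1 of the 18, against 0.612% of all. These matches describe the letters of the windows, some genes have more than 1 window, and no binding was measured.

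NK receptors and their adaptors rose together. Of 31 listed genes 30 were tested and called higher, in the fit of 11 libraries and inside set B alike, with a median of 4.48 log2 units. Of these, 16 reached 1 FPKM in fewer than 3 stage 1 libraries and so passed the filter on low values through stage 3, where they are high, which partly fixes this count. Klrb1c, the gate gene, is 1 of the 30. The Ly49 genes (Klra), the NKG2 genes (Klrc) and their neighbours lie in 1 cluster of near-identical copies, so reads may have been split among them and the level of each is uncertain. Klra9 had 489, 640 and 882 FPKM in stage 3 libraries, and 0.784, 1.42, 1.12, 12 and 0.827 FPKM in stage 1 libraries 1 to 5. Klrd1, which encodes CD94, the shared partner of NKG2 receptors, had 475, 695 and 1079 FPKM in stage 3 libraries, and 5.83, 8.52, 17, 86.5 and 4.21 FPKM in stage 1 libraries. The activating receptor NKG2D (Klrk1) had 230, 282 and 296 FPKM in stage 3 libraries, and 2.45, 2.95, 3.25, 41 and 1.4 FPKM in stage 1 libraries. In all of these genes stage 1 library 4 stood above the other stage 1 libraries and below every stage 3 library.

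That library was the highest of stage 1 for 20 of the 30 genes. Its median level over the list was 6.22% of the stage 3 mean in its set, against 0.309% to 1.46% in the other stage 1 libraries. For Klrb1c it held 8.47 FPKM, against 4.2 to 6.77 FPKM in the other stage 1 libraries. The fit without stage 1 library 4 called 30 members higher too.

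Among adaptors, Fcer1g, the common γ chain of Fc receptors, had 192, 443 and 665 FPKM in stage 3 libraries, and 4.67, 5.33, 24.2, 18.2 and 2.18 FPKM in stage 1 libraries. It is also on the myeloid and dendritic marker list of 14 genes. These summed to 277 to 849 FPKM in stage 3 libraries and to 83.5 to 161 FPKM in stage 1 libraries. Most of the stage 3 sum was Fcer1g itself. Most of the stage 1 sum was Cst3, at 76.1 to 118 FPKM there and at 85.3 to 128 FPKM in stage 3 libraries. The defining genes Csf1r and Cd14 were at most 0.129 FPKM in any library. Other genes of that list were raised in single libraries: in stage 3 library 5 Lyz2 was at 25.3, H2-Aa at 82.2 and H2-Ab1 at 26.6 FPKM, and in stage 1 library 3 Lyz2 was at 8.78 FPKM. Their part in the level of Fcer1g was not tested. Tyrobp (DAP12) had 10.4 to 57.4 FPKM in stage 3 libraries and 0, 0, 9.16, 1.45 and 0 FPKM in stage 1 libraries, so that stage 1 library 3 came close to the lowest stage 3 library. Ncr1, the NKp46 receptor of NK cells, was low in stage 3 at 0.544 to 3.82 FPKM and was listed at 0 in all 5 stage 1 libraries.

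**Figure D3:**
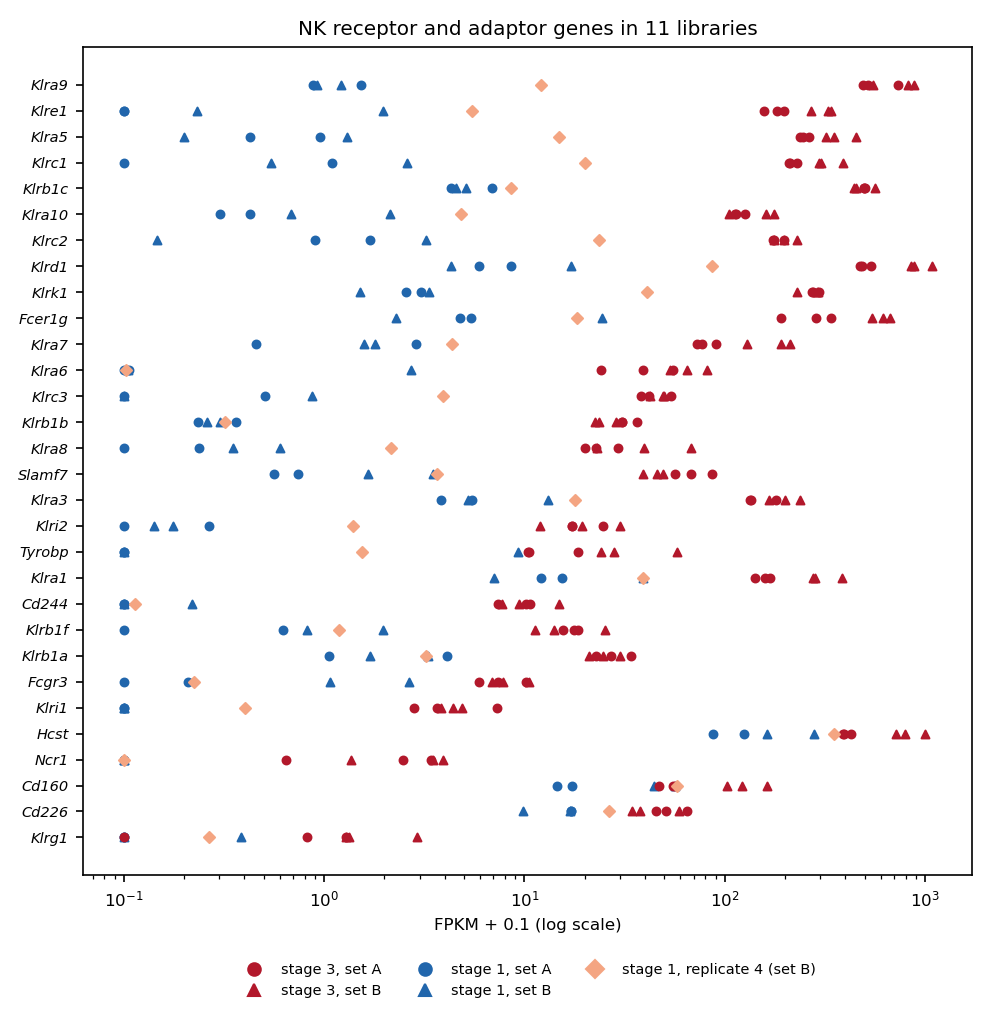
Level of each of the 30 tested NK receptor and adaptor genes (rows, ordered by their difference) in each library, as FPKM + 0.1 on a log axis. Stage 3 libraries are red and stage 1 libraries blue, with circles for set A and triangles for set B, and stage 1 replicate 4 is an orange diamond. The red points lie to the right for nearly all genes, and the diamond lies between the colours for Klra9, Klrd1, Klrc1, Klrc2 and Klrk1.

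Chemokine receptors, which steer cells between tissues, moved in both directions. Of 13 tested chemokine receptors 6 were called higher and 6 lower, with a median of 0.00. Of the 6 higher genes 1 passed the filter through stage 3 only, and of the 6 lower 2 through stage 1 only. Ccr7, the receptor for chemokines of lymph nodes and the thymic medulla (chr11:99005513-99016391, mm9), had 0, 0.52 and 1.92 FPKM in stage 3 libraries, and 57.8, 106, 89.9, 83.4 and 74.3 FPKM in stage 1 libraries. Ccr9, the receptor for the thymic and gut chemokine CCL25, had 0.66, 0.996 and 3.72 FPKM in stage 3 libraries, and 89.8, 145, 110, 130 and 82.8 FPKM in stage 1 libraries. Both were near the floor in stage 3, with differences of -5.70 ± 0.23 and -5.62 ± 0.25 log2 units (SE, limma adjusted p = 1.4e-11 and 7.34e-11). The highest stage 3 values of Ccr7 and of Ccr9 were in library 5. Ccr4 and Ccr10, receptors of skin-homing cells, were lower by -4.12 ± 0.17 and -2.58 ± 0.28 (SE).

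Cxcr3 and Cxcr6, which guide cells to inflamed tissue and liver, were among those called higher. Cxcr3 had 141, 198 and 345 FPKM in stage 3 libraries, and 25.1, 24.1, 45.6, 81.4 and 79.1 FPKM in stage 1 libraries, a difference of 2.27 ± 0.18 (SE). Cxcr6, already high in stage 1 at 124 to 519 FPKM, was at 320 to 954 FPKM in stage 3, a difference of 1.15 ± 0.18 (SE). Inside set B 3 chemokine receptors were called higher.

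In the list on exit from the thymus and adhesion, 11 of 17 tested genes were called higher and 2 lower, Cd44 among the higher. Among the lower genes was S1pr1, the sphingosine phosphate receptor that lets T cells leave, which had 3.09, 5.65 and 9.04 FPKM in stage 3 libraries, and 23.8, 27.4, 18.9, 22 and 21.7 FPKM in stage 1 libraries. Cd69, whose product pulls S1PR1 from the surface, had 62.1, 135 and 216 FPKM in stage 3 libraries, and 5.08, 6.83, 16.5, 44.6 and 30.9 FPKM in stage 1 libraries. Rgs1, a brake on chemokine signals, had 290, 801 and 1070 FPKM in stage 3 libraries, and 5.9, 20.8, 14.6, 67.6 and 66.3 FPKM in stage 1 libraries. Itga1, the collagen-binding integrin CD49a, had 5.48 to 32.4 FPKM in stage 3 libraries and at most 0.116 FPKM in stage 1 libraries. Klf2, which drives S1pr1 in T cells, had 8.83 to 118 FPKM in stage 3 libraries and 3.37 to 37 FPKM in stage 1 libraries. Its difference of 0.88 ± 0.37 log2 units (SE) was not called as deposited (limma adjusted p = 0.0819) or inside set B (limma adjusted p = 0.198). With upper-quartile scaling Klf2 was called higher (1.09, limma adjusted p = 0.0402).

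Genes of the NKT2 kind and the interleukin 4 axis were mostly lower. Of 23 tested genes 19 were called lower and 2 higher, with a median of -2.32 log2 units. Inside set B 15 were called lower. Of the 19 lower genes 4 passed the filter through stage 1 only, and of the 2 higher 1 through stage 3 only. Il4 itself had 26.2, 42 and 63.6 FPKM in stage 3 libraries, and 76.9, 113, 223, 223 and 143 FPKM in stage 1 libraries. Stage 3 libraries lay below stage 1 libraries throughout, by -1.68 ± 0.18 log2 units (SE, limma adjusted p = 1.27e-06), and the transcript stayed above 26 FPKM in each. Il13, the sister cytokine, had 1.37, 1.67 and 2.25 FPKM in set A libraries of stage 3, against 55.3 and 104 FPKM in those of stage 1. Il17rb, the receptor for interleukin 25, was lower by -3.61 ± 0.44, and Plac8, a small cysteine-rich protein, by -4.10 ± 0.21 (SE). The 2 rises were Il4ra, the interleukin 4 receptor chain, at 2.85 ± 0.24, and Nfil3 at 1.69 ± 0.31 (SE).

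Zbtb16 (chr9:48462402-48644050, mm9) had 12.8, 17.1 and 21.8 FPKM in the set A libraries of stage 3, against 80.7 and 113 FPKM in those of stage 1. In set B it had 0.956, 1.94 and 3.52 FPKM in stage 3 libraries, against 13.1, 16.6 and 9.77 FPKM in stage 1 libraries. The stages did not overlap within either set, and the difference was -2.32 ± 0.22 log2 units (SE, limma adjusted p = 2.92e-07). Gata3, the master factor of type 2 cells, differed little, with 43 to 58.7 FPKM in stage 3 and 59.3 to 91.4 FPKM in stage 1 libraries. Its call (-0.53 ± 0.15, SE) was lost inside set B (limma adjusted p = 0.0593) and with upper-quartile scaling, where the difference was -0.31. Cd4 was called lower in the fit of all 11 libraries (-1.78 ± 0.49, SE) and not inside set B (limma adjusted p = 0.127), where stage 3 library 5 was at 2.42 FPKM, with 19 and 19.6 FPKM in the other set B libraries of stage 3.

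Factors of early thymic life were mostly lower in stage 3. The 9 markers of double-positive thymocytes summed to 13.8 to 53 FPKM in stage 3 libraries, highest in library 5, and to 25.9 to 47.3 FPKM in stage 1 libraries, and their part here was not tested. Of 19 tested genes of that list 13 were called lower and 2 higher, and inside set B 10 were called lower. Id3, the inhibitor of E proteins that the receptor signal induces (chr4:135699737-135701307, mm9), had 8.01, 15.8 and 31 FPKM in stage 3 libraries, and 202, 260, 405, 296 and 423 FPKM in stage 1 libraries. Its relative Id2 went the other way and was abundant at both stages. Id2 had 777 to 938 FPKM in set A and 3486 to 4474 FPKM in set B libraries of stage 3, against 329 and 323 FPKM in set A and 1455, 2147 and 789 FPKM in set B libraries of stage 1. The differences were -4.12 ± 0.18 for Id3 and 1.45 ± 0.22 log2 units for Id2 (SE, limma adjusted p = 2.5e-11 and 6.4e-05).

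Myb, a factor of proliferating thymocytes, had 0.778, 1.06 and 2.94 FPKM in stage 3 libraries, and 32.8, 43, 18.6, 15.1 and 11.6 FPKM in stage 1 libraries. Lef1 and Tcf7, the nuclear partners of β-catenin, were lower by -2.58 ± 0.20 and -1.84 ± 0.16 (SE). Egr2, the immediate target of receptor signalling that turns on Zbtb16, was lower by -1.32 ± 0.23 (SE), with 2.12 to 5.89 FPKM in stage 3 and 7.3 to 16.4 FPKM in stage 1 libraries. Its relative Egr1 had 3.83 to 24.6 FPKM in stage 3 and 8.48 to 41.7 FPKM in stage 1 libraries, which overlap, and was not called (limma adjusted p = 0.105). Tox, needed for the CD4 lineage and for NKT cells, was lower by -1.43 ± 0.16 (SE).

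**Figure D4:**
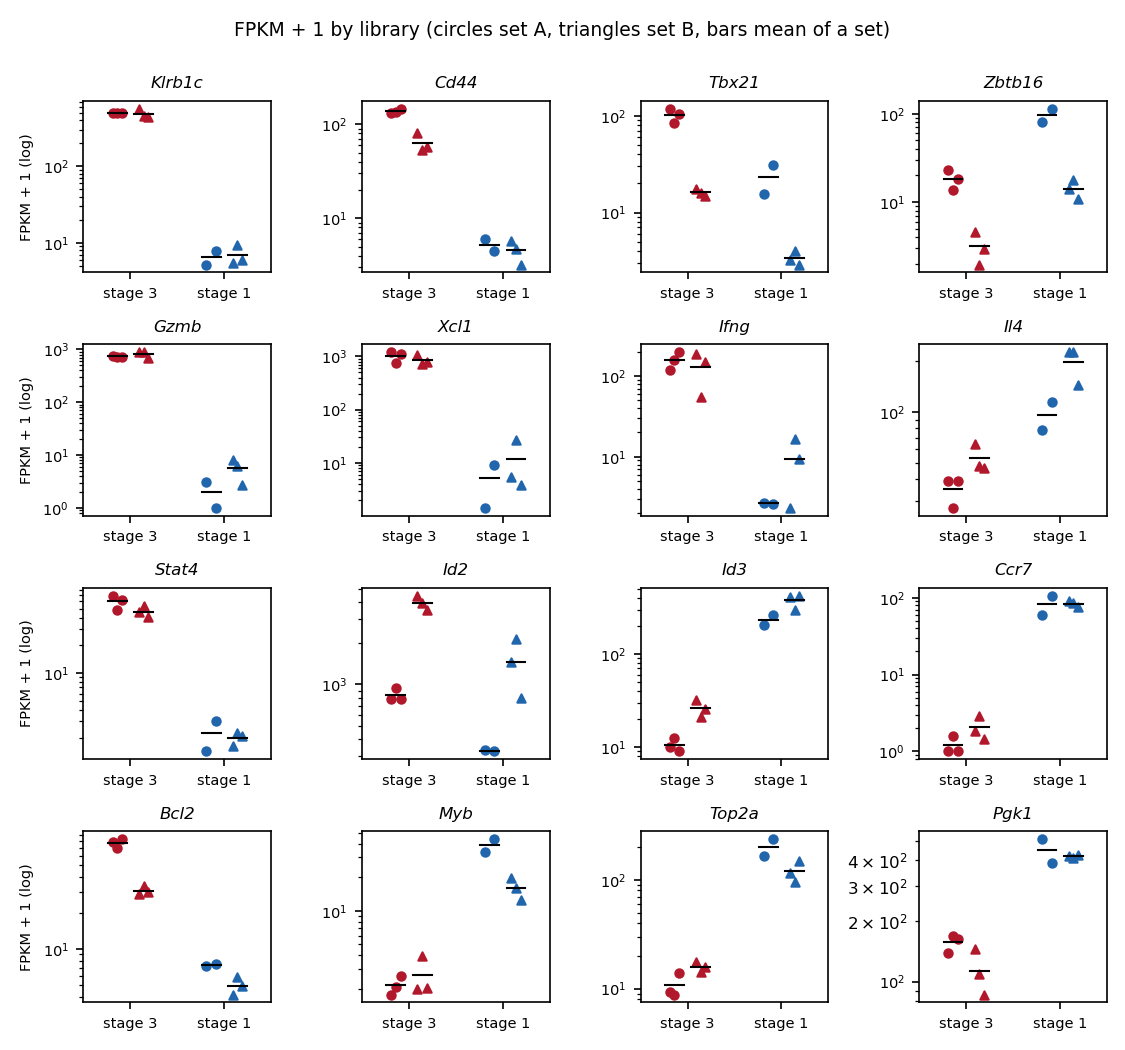
FPKM + 1 on a log axis for 16 genes, 1 panel each, with stage 3 left and stage 1 right in each panel. Circles are set A and triangles set B libraries, and a bar is the mean of a stage in a set. Within each set the stages are apart in every panel shown, and for Tbx21, Zbtb16 and Id2 the sets differ from each other as much as the stages do.

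In a wider list of cytokine receptors and their signalling molecules, from interleukin receptors to Socs inhibitors, calls went in both directions. Of 33 tested genes 19 were called higher and 5 lower, with a median of 0.64 log2 units. Inside set B 13 were higher and 1 lower. Of the 19 higher genes 4 passed the filter through stage 3 only, and of the 5 lower 2 through stage 1 only. Il2rb, the β chain shared by the interleukin 2 and 15 receptors, had 364, 696 and 864 FPKM in stage 3 libraries, and 126, 121, 72.8, 85.5 and 57.1 FPKM in stage 1 libraries. Il12rb2, the inducible chain of the interleukin 12 receptor, had 41.7, 59.6 and 77.1 FPKM in stage 3 libraries, and 0.429, 0.881, 0.725, 0.992 and 2.46 FPKM in stage 1 libraries. Stat4, which carries its signal, had 39.2, 50 and 68.5 FPKM in stage 3 libraries, and 0.424, 2.03, 0.614, 1.25 and 1.09 FPKM in stage 1 libraries. Il12rb1, the partner chain of Il12rb2, was lower (-0.59 ± 0.20, SE, limma adjusted p = 0.0248) and not called inside set B (limma adjusted p = 0.482). For Il2rb, Il12rb2 and Stat4 no stage 3 library overlapped a stage 1 library, and the differences were 2.74 ± 0.17, 4.88 ± 0.23 and 4.68 ± 0.20 log2 units (SE).

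The 2 chains of the interferon-γ receptor went apart. Ifngr1, the ligand-binding chain, had 265, 294 and 378 FPKM in stage 3 libraries, and 14, 15.3, 15.9, 15.3 and 25.3 FPKM in stage 1 libraries. Ifngr2, the signalling chain, had 0 to 0.497 FPKM in stage 3 libraries, and 10.3, 10.8, 7.18, 8.44 and 2.3 FPKM in stage 1 libraries. The differences were 4.13 ± 0.15 and -2.75 ± 0.27 log2 units (SE, limma adjusted p = 3.94e-12 and 4.03e-07). Il10ra was higher by 3.58 ± 0.19, and the feedback inhibitors Socs2 and Cish by 2.98 ± 0.22 and 2.43 ± 0.28 (SE). The interleukin 2 signal factors Stat5a and Stat5b were called lower, by -0.66 and -0.80, but not inside set B (limma adjusted p = 0.257 and 0.071). Neither the common γ chain Il2rg (0.19) nor Jak3 (-0.01) was called.

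The T cell receptor list showed no common direction. Of 27 tested genes 6 were called higher and 5 lower, against 11.6% and 28.9% of all tested genes, with a median of 0.03. With upper-quartile scaling 11 were higher and 5 lower, against 17.9% and 20.9%. Ptpn22 and Ubash3a, phosphatases that dampen receptor signals, were higher by 2.20 ± 0.18 and 1.68 ± 0.23 (SE). The ζ chain Cd247 had 98.9, 123 and 134 FPKM in stage 3 libraries, and 206, 281, 242, 334 and 390 FPKM in stage 1 libraries. Lck, the kinase at CD4, differed by -0.16 ± 0.16 (SE) and was not called.

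Of 9 tested genes of the SLAM family and its adaptors, a receptor family needed for NKT selection, 4 were called higher and 2 lower. Over all tested genes 11.6% were higher and 28.9% lower. Slamf6 (Ly108), which sends the selecting signal between thymocytes, had 2.45, 5.61 and 8.58 FPKM in stage 3 libraries, and 58.3, 84.6, 79.8, 81.1 and 42.2 FPKM in stage 1 libraries. The NK-type members Slamf7 and Cd244 (2B4) were higher by 4.45 ± 0.32 and 3.39 ± 0.20 (SE), Cd244 at 7.32 to 14.7 FPKM in stage 3 and at most 0.12 FPKM in stage 1 libraries. Slamf1 was low at both stages, at 0.696 to 5.74 FPKM in stage 3 and 2.11 to 3.89 FPKM in stage 1 libraries, and was not called.

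Costimulatory and inhibitory receptors split, with 7 of 19 tested genes called higher and 9 lower, against 11.6% and 28.9% of all tested genes. Pdcd1 (PD-1) had 19.8, 25.2 and 62.3 FPKM in stage 3 libraries, and 161, 193, 347, 278 and 280 FPKM in stage 1 libraries. Icos, the costimulator of follicular and type 2 cells, was lower by -2.19 ± 0.16 (SE). Tigit, an inhibitory receptor of NK and T cells, had 6.6 to 23.5 FPKM in stage 3 and 0 to 2.84 FPKM in stage 1 libraries. Tnfrsf18 (GITR) was higher by 1.91 ± 0.16 (SE).

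Cell cycle genes fell almost as a block. Of 37 tested 36 were called lower and none higher, in the fit of 11 libraries and inside set B. The median was -2.87 log2 units, and upper-quartile scaling gave 36 and -2.64. Of the 36 called as deposited, 3 passed the filter through stage 1 only. Top2a, the topoisomerase of dividing cells, had 7.79, 13.2 and 16.5 FPKM in stage 3 libraries, and 164, 237, 115, 94 and 148 FPKM in stage 1 libraries. Rrm2, which makes DNA precursors, had 2.11, 20.7 and 44.9 FPKM in stage 3 libraries, and 128, 89.7, 363, 267 and 320 FPKM in stage 1 libraries. No stage 3 library reached a stage 1 library for either gene. Mki67, the antigen Ki-67, was lower by -2.74 ± 0.24, the mitotic cyclin Ccnb1 by -3.75 ± 0.30, and the replication licensing subunit Mcm2 by -1.75 ± 0.14 (SE). The member not called was the licensing factor Cdt1 (-0.38 ± 0.23, SE).

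Genes of growth and energy use were lower by smaller amounts. Of 26 tested genes for ribosome assembly 22 were called lower and none higher, with a median of -0.85, and inside set B 16 were lower. With upper-quartile scaling 19 were lower (20.9% of all tested genes) and inside set A 14 (17.6%). With the number of deposited rows per file as a further term 11 were lower (1844 of all 10857 genes). Nop16, a nucleolar protein, had 8.18, 13.7 and 15.2 FPKM in set A libraries of stage 3, against 30.9 and 27.4 FPKM in those of stage 1. In set B it had 26.3, 31.1 and 34.2 FPKM in stage 3 libraries, against 103, 78 and 94.3 FPKM in stage 1 libraries. Myc, the driver of these genes in many cells, had 40.7 to 61.9 FPKM in stage 3 and 28.5 to 82.9 FPKM in stage 1 libraries, differed by 0.13 ± 0.22 (SE) and was not called.

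In glycolysis 14 of 19 tested genes were called lower and 1 higher, with a median of -0.95, and inside set B 12 were lower. Upper-quartile scaling gave 13 lower, set A alone 11 and the row number term 8, to be read against the shares just given. Pgk1 had 85.2, 141 and 168 FPKM in stage 3 libraries, and 510, 388, 419, 409 and 424 FPKM in stage 1 libraries. Ldha, which makes lactate, had 278, 365 and 560 FPKM in stage 3 libraries, and 740, 906, 1249, 1036 and 1303 FPKM in stage 1 libraries. The 1 rise was the glucose transporter Slc2a3 (1.15 ± 0.42, SE), called with a limma adjusted p of 0.0497 and called neither inside set B (limma adjusted p = 0.261) nor without stage 3 library 5.

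In the respiratory chain 23 of 28 tested genes were called lower and none higher, with a median of -0.57. With upper-quartile scaling 13 were lower (20.9% of all tested genes) and inside set A 9 (17.6%). With the number of deposited rows as a further term 8 were lower (1844 of all 10857 genes). The size of this group thus depends on the scaling and the libraries. The cholesterol pathway had 3 genes higher and 7 lower of 21 tested, near the shares over all tested genes (11.6% and 28.9%), with a median of -0.18 that became 0.00 with upper-quartile scaling. Fdps, which makes farnesyl diphosphate, was lower by -1.17 ± 0.22 (SE). The rise of Hmgcs1 (1.08 ± 0.39, SE, limma adjusted p = 0.0422) was lost on leaving out any of 9 libraries, every one but stage 1 library 2 and stage 3 library 4, and is not counted on.

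**Figure D5:**
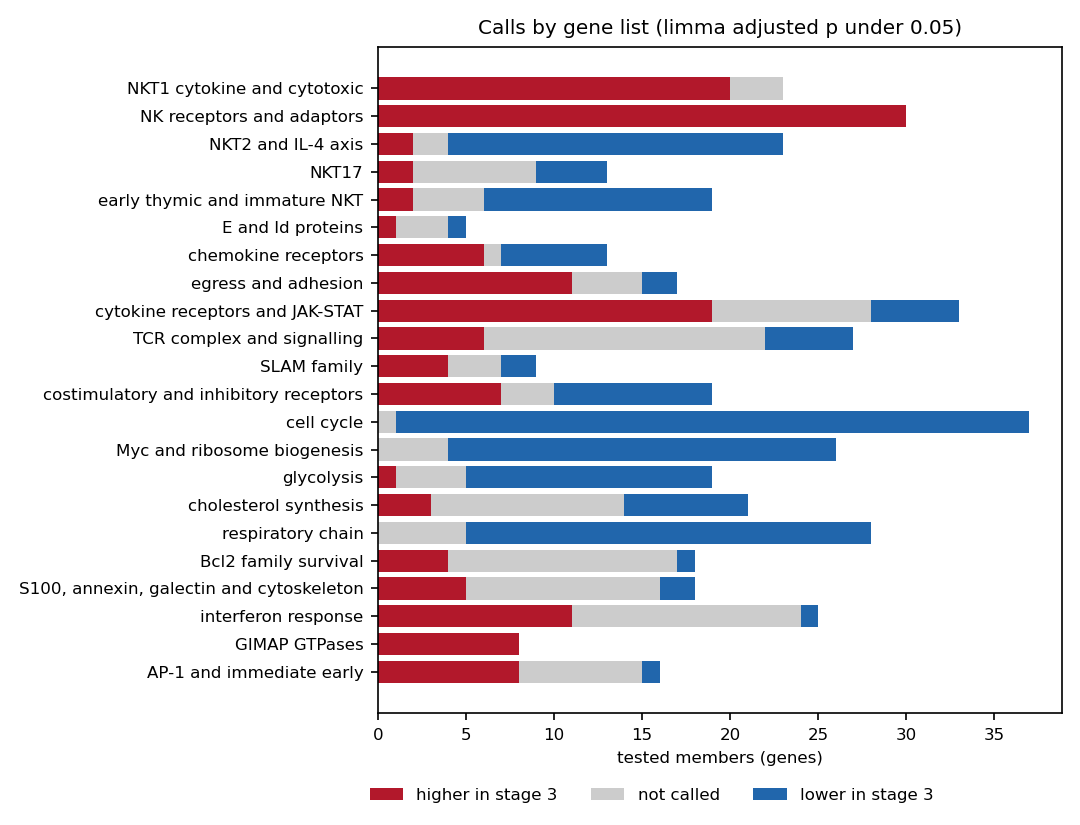
Tested members of each of 22 gene lists, as a bar split into genes called higher in stage 3 (red), not called (grey) and called lower (blue). The bar length is the number of tested genes. NK receptors are red throughout, cell cycle genes are blue but for 1, and the T cell receptor list is mostly grey.

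Survival genes of the Bcl2 family were mostly not called, 4 of 18 being higher and 1 lower, against 11.6% and 28.9% of all tested genes. Upper-quartile scaling gave 9 higher and 1 lower, against 17.9% and 20.9%. Bcl2, the survival factor sustained by interleukin 15, had 67.9, 77.4 and 81.8 FPKM in set A libraries of stage 3, against 6.27 and 6.43 FPKM in those of stage 1. In set B it had 27.6, 29 and 32.5 FPKM in stage 3 libraries, against 3.16, 4.79 and 3.92 FPKM in stage 1 libraries. The gap held in both sets, at 2.97 ± 0.17 log2 units (SE, limma adjusted p = 9.47e-10). Its opponent Bcl2l11 (Bim) was also higher, by 2.06 ± 0.21 (SE), as was Bcl2l1 (Bcl-xL), by 1.30 ± 0.22 (SE).

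All 8 GIMAP genes, small GTPases of lymphocyte survival that lie side by side and are alike in sequence, were called higher, 7 of them inside set B. Gimap3 had 331, 362 and 421 FPKM in stage 3 libraries, and 17.6, 26.2, 16.8, 37.9 and 49.1 FPKM in stage 1 libraries. Of 25 tested interferon response genes 11 were called higher and 1 lower. The largest rises were in the Ifitm genes, antiviral membrane proteins of similar sequence: Ifitm2 had 45.3, 75.8 and 149 FPKM in stage 3 libraries, and 2.95, 0, 14.3, 3.89 and 3.4 FPKM in stage 1 libraries. The antiviral gene Oasl2 was lower, by -1.51 ± 0.16 (SE), and the interferon signal factor Stat2 was not called (0.34).

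Immediate early genes varied widely between libraries. Of 16 tested 8 were called higher and 1 lower, with 3 higher inside set B and 11 higher without stage 3 library 5. Dusp1, a phosphatase induced by stress and handling as well as by signals, had 38.6, 684 and 2012 FPKM in stage 3 libraries, and 26.7, 121, 10.1, 62 and 28.3 FPKM in stage 1 libraries. Stage 3 library 5 was the lowest of its stage for Dusp1, and for Fos, at 15.9 FPKM with 189 to 545 FPKM in the other stage 3 libraries. Fos was not called (limma adjusted p = 0.0805). Fosb lost its call on leaving out any of 9 libraries, every one but stage 1 library 4 and stage 3 library 5, and Atf3 on leaving out stage 1 library 2.

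Calcium-binding and cytoskeletal genes of effector cells showed 5 rises and 2 falls among 18 tested, against 11.6% and 28.9% of all tested genes. Anxa1 had 21.7, 41.9 and 76.4 FPKM in stage 3 libraries, and 1.2, 2.71, 8.47, 8.46 and 0.832 FPKM in stage 1 libraries. Lgals3, galectin 3, was lower by -1.14 ± 0.20 (SE). In the list of the interleukin 17 kind (NKT17), 13 genes were tested, 2 were higher and 4 lower, near the shares over all tested genes (11.6% and 28.9%). The integrin Itgb3 was lower by -2.71 ± 0.19 and the nuclear receptor Rora by -1.73 ± 0.27, and the interleukin 7 receptor Il7r was higher by 1.69 ± 0.22 (SE). Il17a did not pass the filter, with at most 0.863 FPKM in stage 3 and 1.14 FPKM in stage 1 libraries. The γδ T cell markers Sox13 and Blk, which the NKT17 kind shares, were lower too, Blk without a call inside set B (limma adjusted p = 0.0712).

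Outside the lists, several of the largest changes were in genes of less familiar roles in NKT cells. Styk1, a kinase-like protein of NK cells, had 36.7, 66.2 and 86.3 FPKM in stage 3 libraries and at most 0.0451 FPKM in stage 1 libraries. Tsc22d3 (GILZ), a glucocorticoid-induced repressor, had 88.7, 163 and 327 FPKM in stage 3 libraries, and 0.316, 1.37, 1.88, 4.75 and 2.86 FPKM in stage 1 libraries. The differences of Styk1 and Tsc22d3 were 5.95 ± 0.20 and 5.96 ± 0.20 log2 units (SE). Dhrs3, an enzyme of retinoid metabolism, had 0, 0.493 and 2.8 FPKM in stage 3 libraries, and 16.5, 26.7, 58.9, 76.5 and 64.1 FPKM in stage 1 libraries. Pdlim1, a cytoskeletal adaptor, was lower by -4.28 ± 0.18, the organic cation transporter Slc22a3 by -4.43 ± 0.39, and the lysosomal protease Lgmn by -3.81 ± 0.28 (SE). The genes of this paragraph were picked as largest changes with no overlap of the stages inside either set, which fixed that separation. Styk1 passed the filter on low values through stage 3 only, and Dhrs3 and Slc22a3 through stage 1 only.

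Stage 2 libraries (CD44 without NK1.1, 4 in set A and 3 in set B) are set beside these values with no test. For Gzmb they had 0.663 to 17.3 FPKM in set A and 23.3 to 40.2 FPKM in set B, the set B values above all stage 1 libraries (0 to 6.96) and all of them below stage 3 (680 to 889). For Stat4 they had 1.79 to 5.78 FPKM in set A and 2.64 to 11.3 FPKM in set B, with the set B values above those of stage 1 (0.614 to 1.25). For Klra9 they had 4.73 to 16.8 FPKM in set A and 7.58 to 22.2 FPKM in set B, above the stage 1 libraries other than library 4, which had 12 FPKM. Every stage 2 value of Stat4 and Klra9 lay below all stage 3 libraries. For Bcl2 they had 3.68 to 8.75 FPKM in set A, on either side of the stage 1 values of that set, and 0.86 to 1.46 FPKM in set B, below stage 1. For Id3 they had 99.5 to 172 FPKM in set A and 140 to 235 FPKM in set B, between the stages within each set.

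The test of the stage difference between the sets called 28 genes, 19 with a lower value in set A than in set B. Igfbp4, a binder of insulin-like growth factors, had 0, 0 and 0.184 FPKM in stage 3 and 249 and 468 FPKM in stage 1 libraries of set A, and 0, 0.0256 and 0.198 FPKM in stage 3 and 30.2, 32.2 and 7.3 FPKM in stage 1 libraries of set B. The fall was called in both, and differed by -4.08 log2 units between sets (limma adjusted p = 0.0207). Fgl2, a secreted fibrinogen-like protein, was higher at stage 3 in both sets, by more in set A (a further 1.82, limma adjusted p = 0.0257). With a pseudocount of 0.1 in place of 1 the test called 2 genes, the short RNA genes Mir3074-1 and Snora24.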

How the data were processed

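Libraries were grouped by their titles. The deposited unit is FPKM, made by the authors with TopHat2 2.0.6 and Cufflinks 2.1.1 on build mm9, per the submitters' processing notes. Gene intervals come from the deposited files and are 1-based. Levels of rows sharing a symbol were added. Of 23248 symbols 23186 were kept, after dropping 51 that some files lack and 11 whose estimate failed. A gene was tested if it reached 1 FPKM in at least 3 of the 11 libraries. The test was limma 3.58.1 in R 4.3.3 (trend and robust moderation) on log2(FPKM + 1), with no further scaling, a term for library set and Benjamini-Hochberg adjustment over all 10857 tested genes. The same fit ran inside set B, and an interaction term compared the sets, which are divided at a median of 11 FPKM over rows at 1 or more. Values carry no counting interval, since read counts are not known.

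The comparison, gene lists and named genes were chosen with earlier results of these data known. The rule names the gate genes, fixed regulators, the most changed called members of a list (at most 4), the 15 largest rises and 15 largest falls with a mean of at least 10 FPKM and no overlap of the stages inside either set, and the strongest differences between sets. Other list members named, and all genes outside these, were picked after their values were seen. Some listed genes are not reported here. The scripts were tested on simulated data. Alternatives varied the pseudocount, filter, scaling, set term, replicate block, summing of rows and libraries included. Libraries of the 2 stages with the same number did not deviate together (correlations of -0.17 to -0.01), and the main fit did not use the numbers as pairs. Set A holds only 2 stage 1 libraries, whose deviations from their mean mirror each other. Number 3 is in set B in stage 1 and in set A in stage 3. The check therefore cannot show whether libraries were paired.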

Additional observations from a re-analysis of the deposited data

Results flagged for a closer look

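In a group of 5 or 6 libraries, a value was singled out when its gap to the nearest other library was large for the range (Dixon's test at 95%). Chance alone does so in about 1 in 20 groups if values are normally spread, which FPKM, not logged here, need not be. Both stages of every named gene were screened, and 119 named genes had a call. Many groups were thus looked at, and some of the values below may be chance, above all those near 0. Stage 1 library 4 was highest in its stage, and apart, for 7 NK-type genes: Fasl at 6.68 FPKM (0.331 to 2 in the other stage 1 libraries), Klra9 at 12 FPKM (0.784 to 1.42), Klra5 at 14.8 FPKM (0.0996 to 1.2), Klrc1 at 19.9 FPKM (0 to 2.5), Klra8 at 2.06 FPKM (0 to 0.505), Klrc2 at 23.6 FPKM (0.0469 to 3.12) and Klrd1 at 86.5 FPKM (4.21 to 17). The same library was apart for Itga1 at 0.116 FPKM, Ptpn22 at 39.7 FPKM and Snora24 at 0.000221 FPKM. Every one of these levels was below all stage 3 libraries, except that of Snora24, where stage 3 libraries of set A were at 0 to 0.00342 FPKM. Klrb1c, the gate gene, was at 8.47 FPKM there and was not apart. What gave this library its higher levels was not tested.

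Other stage 1 libraries stood apart for single genes. Library 5 had Il12rb2 at 2.46 FPKM and Ifngr1 at 25.3 FPKM. Library 3 had Cd244 at 0.12 FPKM, Ifitm2 at 14.3 FPKM and Ifitm1 at 5.97 FPKM, and its mast cell and basophil markers summed to 123 FPKM, with at most 8.84 FPKM in any other of the 11 libraries. Library 2 had Gapdh at 1553 FPKM, Hmgcs1 at 4.71 FPKM and Gm10684 at 1.21 FPKM.

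In stage 3, library 5, which also held B cell and erythroid RNA, had Ccr9 at 3.72 FPKM and Snora24 at 77.6 FPKM, and was the highest of its stage in each. Library 4 had Wdr12 at 17.5 FPKM, Dhcr7 at 23.6 FPKM and Slc22a3 at 0.13 FPKM. Library 3 had Atf3 at 36.8 FPKM.

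The stage difference itself differed between the sets for 7 named genes, given here as the difference in set A minus that in set B (log2). It was 2.02 for Itga1, 1.82 for Fgl2, 2.03 for Crim1 and 3.30 for Gm10684, so that these differences were larger in set A. It was -4.08 for Igfbp4, which fell by more in set A. It was -6.58 for Mir3074-1 and -4.88 for Snora24, short RNA genes at or near 0 in all set A libraries of both stages. For Gm10684 the difference inside set B was 0.05, and its call in the fit of all 11 libraries was missed (limma adjusted p = 0.0534). Calls of short RNA genes were few: 5 of 88 tested miRNA and snoRNA genes.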

How the results depend on the processing

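Leaving out each of the 11 libraries in turn gave 3948 to 4246 called genes, 1055 to 1316 higher and 2719 to 3080 lower, and without stage 3 library 5 set B gave 2150 calls (472 higher, 1678 lower) and the test between sets 31. Without the set term 1497 genes were called (426 higher, 1071 lower), inside set B 2830 (600 higher), and inside set A 1908 lower. Upper-quartile scaling called 1945 higher and quantile scaling 2045. Whether the replicate numbers mark pairs is not known. With a replicate block 2789 genes were called with the set term (1881 lower) and 2073 without it (755 higher, 1318 lower). With the number of deposited rows per file, added after the data were seen, as a term, 2694 genes were called (1844 lower), and Egr1 became 0.02. That number was 23697 in every stage 3 library but library 4, and 23700 in every stage 1 library but library 2. It thus nearly follows the stage, only those libraries tell it from the stage, and its part was not tested. Without stage 3 libraries 5 and 6, also added later, 3699 were called. In the test between sets quantile scaling called 78 genes and a pseudocount of 0.1 called 2. Of 119 named genes with a call, 109 kept it inside set B, 117 with upper-quartile scaling and 104 with the row count term, and none changed direction among them. The cause of these moves was not tested. Set A libraries other than stage 1 library 1 are the shallowest, which limits low genes there.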

Other observations

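Single genes of extracellular nucleotide signalling differed in both directions between stage 3 and stage 1. These and the other genes below were chosen after their values were seen. Entpd1 (CD39), which breaks down ATP, had 18.8 to 24.4 FPKM in stage 3 and 1.46 to 3.94 FPKM in stage 1 libraries, a difference of 2.77 ± 0.20 log2 units (SE), and Cd38, which consumes NAD, was higher by 2.78 ± 0.18 (SE). The ATP-gated channel P2rx7 had 0.244 to 1.38 FPKM in stage 3 and 6.36 to 25.3 FPKM in stage 1 libraries, and the ADP-ribosyltransferase Art2b, which can trigger it, had 0 to 4.5 FPKM in stage 3 and 18.9 to 72 FPKM in stage 1 libraries. Nt5e (CD73), which makes adenosine, had 28.2 to 42.5 FPKM in stage 3 and 62 to 88.1 FPKM in stage 1 libraries and was called lower.

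Among single genes for surface proteins, Ly6c2 had 754 to 1409 FPKM in stage 3 and 15.5 to 102 FPKM in stage 1 libraries, and Ly6c1, close to it in sequence, was higher by 3.76 ± 0.20 (SE), while the neighbour Ly6a differed by 0.13 ± 0.20 (SE) and was not called. Cd7 had 899 to 1629 FPKM in stage 3 and 61 to 269 FPKM in stage 1 libraries. Receptors for oxysterols (Gpr183, 2.48 ± 0.29), lysophosphatidylserine (Gpr174, 2.70 ± 0.24, and P2ry10, 2.60 ± 0.23) and lysophosphatidic acid (Lpar6, 2.69 ± 0.22) were higher (SE). In retinoid and vitamin D handling, Adh1 (-3.14 ± 0.27) and the vitamin D receptor Vdr (-2.91 ± 0.24) were lower (SE), as was Dhrs3. The aldehyde dehydrogenase Aldh2 was lower too (-3.04 ± 0.42, SE), by -4.46 in set A and -1.91 in set B. Its stage difference was among those called different between the sets (limma adjusted p = 0.0182). Genes that keep DNA methylation through replication, Uhrf1 (-3.22 ± 0.22), Dnmt1 (-1.46 ± 0.18) and Hells (-2.71 ± 0.21), were lower along with the cell cycle genes (SE).

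The short RNA Mir682 was at 78463 and 106953 FPKM in stage 3 libraries 5 and 6, against 566 to 1079 FPKM in the other stage 3 libraries and 0 to 943 FPKM in stage 1 libraries. The FPKM totals of those 2 libraries were 612675 and 644260, against 829312 in stage 3 library 4 of the same set.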
